A study of Mus musculus with 10 samples.

Results

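The 10 genes described here encode cell-surface receptors whose tails carry immunoreceptor tyrosine-based inhibitory motifs (ITIMs) or related sequences and that are known to recruit the tyrosine phosphatase SHP-1, the product of Ptpn6. They were taken by name and not by a measured value. Cd5, Pecam1, Lair1 and Ceacam1 are counted as receptors known from T cells, and Cd22, Cd72, Fcgr2b, Pirb, Cd300a and Klrb1b as receptors known from B cells, myeloid cells or natural killer (NK) cells. They are 10 of 18193 genes with a probe set annotated to 1 gene. All probe sets whose annotation named a member were used, which gave 29 of the 45037 tested, and 6 more that name a member together with other genes are given apart.

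RNA was measured on 10 Affymetrix arrays from CD4+CD25+ T cells, which include most regulatory T cells (Treg cells), taken with an isolation kit from combined lymph nodes and neither treated nor cultured afterwards. The mice were BALB/c, aged 17 to 19 days, and were wild type (WT, 4 arrays), heterozygous for an SHP-1 knockout (he, 3 arrays) or homozygous for it with the motheaten phenotype (me, 3 arrays). Amplification started from 20 ng of RNA, and biotin labelling used 10 ug of the product. The labels call the arrays biological replicates without saying whether each was 1 animal, so p-values measure the spread between these arrays, and the number of arrays limits the precision. The knockout is carried in every cell of the mouse, so the cells came from animals with an inflammatory disease in me and not in the other groups, per what is known of this phenotype. In bulk RNA, fewer cells of a type and less RNA per cell cannot be told apart.

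An ITIM is a short stretch around a tyrosine in a receptor's tail. When the receptor meets its ligand beside an activating receptor, a Src family kinase phosphorylates this tyrosine, and the phosphorylated motif binds the SH2 domains of a phosphatase such as SHP-1, which then removes phosphates from nearby signalling proteins. Loss of SHP-1 takes away the enzyme that these receptors bring to the membrane, while the receptors themselves are encoded by intact genes. CD5 has an ITIM-like motif and is a well-known brake on T cell receptor signalling, and the Fc receptor encoded by Fcgr2b acts mainly through the lipid phosphatase SHIP-1.

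All levels are log2(intensity + 32) after quantile normalisation, all differences are on that scale with the standard error (SE) of the limma fit, and a probe set was called at a Benjamini-Hochberg adjusted p under 0.05 over all 45037. Ptpn6, the targeted gene, at probe set 1456694_x_at gave 9.55, 9.63, 9.83 and 9.81 in WT, with 9.30, 9.33 and 9.54 in he and with 8.84, 9.08 and 9.05 in me. The genotypes did not overlap, and its order followed the labels. The same held at its other probe set, 1460188_at, with a me minus WT difference of -1.09 ± 0.14. The sorted cells' own markers were bright, with mean levels of 11.11 for Foxp3, 10.35 for Il2ra, 10.02 for Cd3e and 9.44 for Cd4. The arrays fell into 2 sets by correlation, set A holding WT 1 and 2, he 1, and me 1 and 3, and set B holding WT 3 and 4, he 2 and 3, and me 2, with r of 0.969 to 0.996 within and 0.848 to 0.941 between them, and the labels do not say what the sets stand for. Each genotype had arrays in both, so a fit with the array set as a block stands beside the plain one, although the sets were already known when it was chosen. By Xist and Eif2s3y, WT 2, WT 4, me 1 and me 2 were male and the other arrays female.

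No member passed the test in any comparison, and neither did the targeted gene Ptpn6. For me against WT with array set as a block, its adjusted p in limma was 0.0549 at 1456694_x_at and 0.0908 at 1460188_at. A missing call therefore does not show that a gene was unchanged. For me against WT, 0 of 29 probe sets were called, beside 0% of all probe sets without the block and 0.00666% with it. At an unadjusted p under 0.05 in limma there were 4 of 29, from Cd5 and Klrb1b and all higher in me, beside 0.626% of all probe sets. With array set as a block there were 7 of 29, which added the brighter Cd22 probe set, beside 4.31%. At 4 of 29 probe sets, again of Cd5 and Klrb1b, every me array was above every WT array, beside 0.802% of all probe sets. The members were chosen with earlier results of these arrays known, so these counts are a description.

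**Figure D1:**
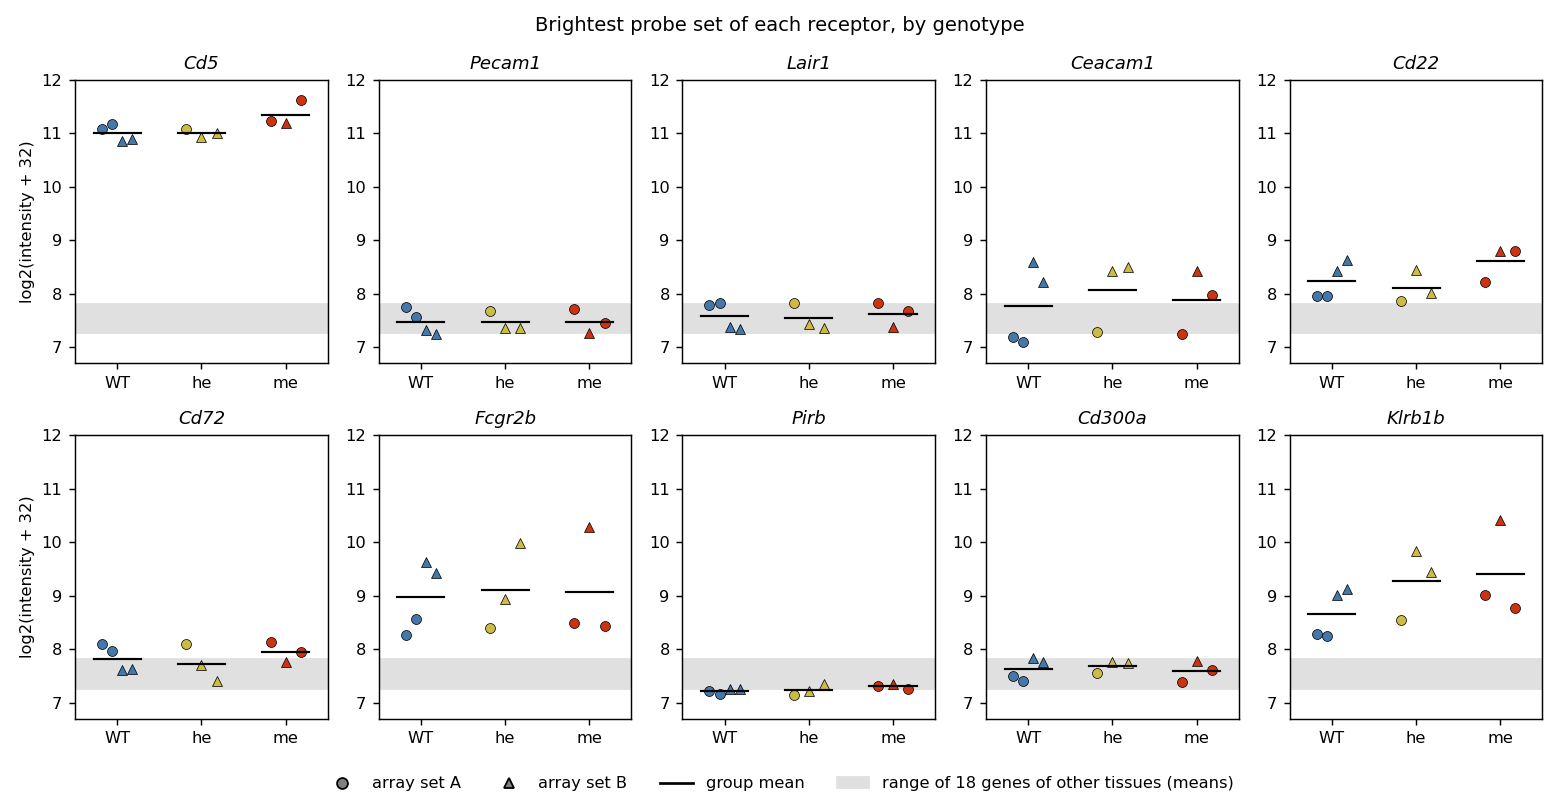
Level of the probe set with the highest mean for each of the 10 receptors, as log2(intensity + 32), in each array by genotype, with circles for array set A, triangles for set B, lines for group means and a grey band for the range of mean levels (7.26 to 7.81) of 18 genes of other tissues. Cd5 lies between 10.86 and 11.62 with its me arrays on top, Fcgr2b, Ceacam1 and Klrb1b are higher in set B, and Pecam1, Lair1, Pirb and Cd300a lie within or near the band.

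The deposited values used here carry no detection call. As a guide to where signal fades into background, 18 measured genes of other tissues had mean levels of 7.26 to 7.81. By this guide 9 of the 29 member probe sets had a mean above the range and 20 did not. Cd5, Ceacam1, Cd22, Cd72, Fcgr2b and Klrb1b each had at least 1 probe set above it. Pecam1, Lair1, Pirb and Cd300a had none, so for these 4 genes the lack of a difference between genotypes says little. The same limit holds for every probe set at such levels, also where a difference is given below. Probe sets differ in how strongly they bind, so these levels rank no gene against another.

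Among the receptors known from T cells, Cd5 had the clearest signal. Cd5, a scavenger-receptor family protein whose level on T cells follows the strength of T cell receptor signalling, had log2 values of 11.07, 11.17, 10.86 and 10.90 in WT, with 11.07, 10.93 and 11.00 in he and with 11.23, 11.19 and 11.62 in me. The me arrays lay above all WT and all he arrays, and WT and he overlapped. The me minus WT difference was 0.35 ± 0.12, a 1.27-fold higher level (limma, adjusted p = 1), and with array set as a block it was 0.31 ± 0.09 (adjusted p = 0.989). It was 0.30 within set A and 0.31 within set B, where me 2 is the only me array. The me minus he difference was 0.35 ± 0.13 and the he minus WT difference 0.00 ± 0.12.

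Array me 3 was the highest for Cd5, and without it the me minus WT difference was 0.21. The same array had the highest Gapdh 3' to 5' signal ratio, a measure of how far the amplified RNA is shortened, at 13.83. That ratio ran from 9.92 to 13.83 in me, 7.84 to 9.53 in WT and 7.88 to 9.71 in he, so it moved with genotype. With the log2 ratio as a covariate the Cd5 difference was 0.14. The summed intensity of 8 T cell markers ran from 10934 to 11915 in WT, 10805 to 12910 in he and 11570 to 12585 in me, and these ranges overlap. The part of RNA length or T cell number in the Cd5 difference was not tested further.

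Pecam1, Lair1 and Ceacam1 had no probe set at which the me and WT arrays stood apart. Pecam1, an adhesion molecule that binds itself on endothelium, platelets and leukocytes, had values of 7.74, 7.57, 7.32 and 7.24 in WT, with 7.68, 7.36 and 7.35 in he and with 7.71, 7.27 and 7.45 in me, with a me minus WT difference of 0.01 ± 0.15. All genotypes overlapped, and the values split by array set and not by genotype. Cdh5 and Kdr, which define endothelial cells, had mean levels of 7.46 and 7.54, within the range of genes of other tissues. Lair1, a collagen receptor of lymphocytes and myeloid cells, had mean levels of 7.23 to 7.58 over its 3 probe sets and me minus WT differences of -0.03 to 0.05.

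Ceacam1, a self-binding adhesion receptor that appears on activated T cells, had 8 probe sets with mean levels of 6.92 to 7.89 and me minus WT differences of -0.12 to 0.11. Its probe set with the highest mean, 1427712_at, had values of 7.19, 7.09, 8.59 and 8.22 in WT, with 7.28, 8.43 and 8.50 in he and with 7.24, 8.42 and 7.98 in me. High and low arrays occurred in each genotype and followed the array sets, with a set B minus set A difference of 1.07. Probe set 1452532_x_at behaved alike, with 1.04, whereas 1460681_at differed by -0.34, so the probe sets of this gene disagree on the sign between sets. Within sets the me minus WT difference at 1427712_at was 0.46 in A, which rests on array me 3, and 0.02 in B. The 2 probe sets shared with Ceacam2, a near-identical neighbour, had me minus WT differences of 0.11 and -0.15.

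Of the receptors known from B cells, Cd22 had the largest me minus WT difference, though it was not called. Cd22 is a sialic acid-binding lectin that restrains B cell receptor signalling. At 1419768_at it had values of 7.96, 7.95, 8.42 and 8.62 in WT, with 7.87, 8.44 and 8.01 in he and with 8.22, 8.79 and 8.79 in me. Arrays me 2 and me 3 were above all WT and he arrays, but me 1 was not, so the groups overlap. The me minus WT difference was 0.36 ± 0.22 (limma, adjusted p = 1), and with array set as a block it was 0.43 ± 0.15 (adjusted p = 0.989). It was 0.55 within set A and 0.27 within set B, and the me minus he difference was 0.49 ± 0.24, or 0.63 ± 0.16 with the block. The other probe set, 1419769_at, had a mean of 7.10, below the range of genes of other tissues, and a difference of 0.08.

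The B cell markers beside Cd22 differed in both directions. The summed intensity of 10 B cell markers ran from 1606 to 2331 in WT, 1643 to 2239 in he and 1586 to 2090 in me, and 4 of the 10 had a mean above the range of genes of other tissues. Cd79a, a subunit of the B cell receptor, had a mean of 7.31, within that range. Ms4a1, which encodes CD20, had values of 7.47, 7.34, 7.98 and 7.72 in WT, with 7.27, 7.85 and 7.66 in he and with 7.93, 8.21 and 8.13 in me, a me minus WT difference of 0.46 ± 0.18. Blk, a B cell Src family kinase, differed by -0.57 ± 0.23. Of the plasma cell markers, Jchain, the joining chain of polymeric antibodies, differed by 2.23 ± 0.43, and the summed intensity of 7 such markers ran from 4284 to 6420 in WT, 4911 to 6486 in he and 6329 to 16633 in me. The part of B lineage cells in the Cd22 values was not tested.

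Cd72, a lectin-like B cell receptor that binds CD100, had values of 8.09, 7.97, 7.60 and 7.62 in WT, with 8.09, 7.70 and 7.40 in he and with 8.14, 7.75 and 7.95 in me. The genotypes overlapped and set A was above set B, by a log2 difference of -0.43 for B minus A. The me minus WT difference was 0.13 ± 0.19, and 0.06 ± 0.09 with array set as a block.

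Fcgr2b followed the array sets and not the genotypes. It encodes the inhibitory Fc receptor for IgG of B cells and myeloid cells. At 1435476_a_at it had values of 8.27, 8.56, 9.63 and 9.42 in WT, with 8.39, 8.94 and 9.99 in he and with 8.49, 10.28 and 8.44 in me. Every set B array was above every set A array at all 5 of its probe sets, with set differences of 0.76 to 1.85, beside 21% of all probe sets that were higher in B without overlap. Since these values also defined the sets, this is a description.

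Fcgr2b differences between genotypes were small beside that split. Over the 5 probe sets the me minus WT differences ran from -0.21 to 0.18, with no call. At 1435476_a_at the difference was 0.10 ± 0.57, and 0.32 ± 0.24 with array set as a block. Within sets it was 0.05 in A and 0.75 in B, where me is the single array me 2. By their means, 10 of 17 myeloid markers were higher in set B and 7 lower, with shifts from -0.37 to 1.53, and Ly86, Csf3r and Cd14, chosen after their values were seen, were lower by 0.37, 0.36 and 0.26. The summed intensity of the 17 ran from 2749 to 3984 in WT, 2749 to 4601 in he and 2875 to 4669 in me, and the 5 set B arrays had the highest sums. Of 11 markers of NK and CD8 cells 5 were higher in set B and 6 lower. Among them Cd8a, also chosen after its values were seen, was at 7.54 to 7.76 in set A and 11.34 to 12.45 in set B. Cd8b1, chosen likewise, did not follow it, with 7.43 to 7.80 in set A and 7.38 to 7.57 in set B. The mean of Cd8b1 was 7.60, within the range of genes of other tissues.

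**Figure D2:**
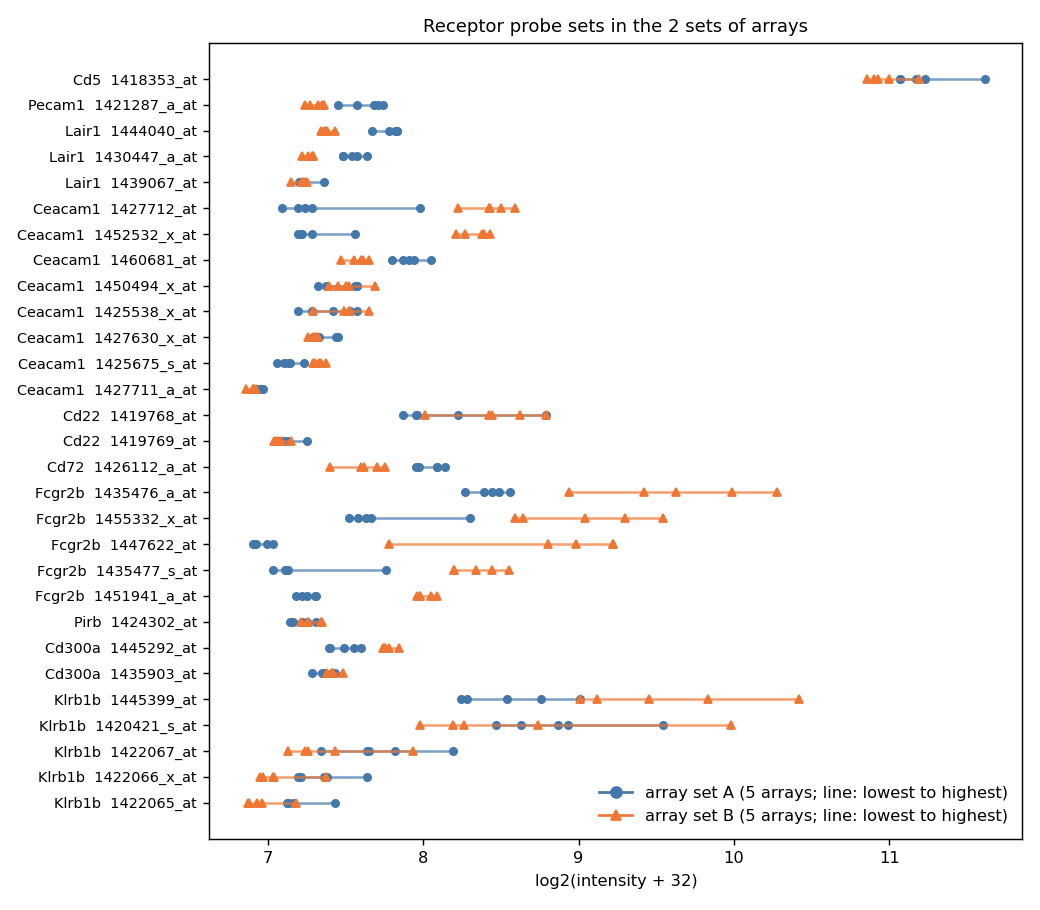
Level of each of the 29 receptor probe sets as log2(intensity + 32) in the 5 arrays of set A (circles) and the 5 of set B (triangles), with a line from the lowest to the highest array of each set. All 5 Fcgr2b probe sets are higher in set B without overlap, and so are 2 Ceacam1 probe sets by about 1 unit, while Cd72, Pecam1 and 2 Lair1 probe sets are lower. Of all probe sets 21% are higher and 30.4% lower in set B without overlap.

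Pirb and Cd300a, receptors of myeloid cells, had low signal in every group. Pirb, a receptor for class I major histocompatibility molecules, had values of 7.22, 7.16, 7.26 and 7.26 in WT, with 7.14, 7.21 and 7.34 in he and with 7.31, 7.35 and 7.25 in me, a me minus WT difference of 0.08 ± 0.07. Its 3 probe sets shared with activating Pira genes differed by -0.03 to 0.09. Cd300a, a lipid-binding receptor, had means of 7.39 and 7.63 at its 2 probe sets and differences of -0.01 and -0.03. Csf1r, Lyz2 and Itgam, which define myeloid cells, had means of 7.99, 8.19 and 7.49. All genotypes overlapped at the Pirb and Cd300a probe sets. Of the 17 myeloid markers 14 were higher in me than in WT by their differences, beside 50.1% of all genes. With limma 3 had an unadjusted p under 0.05, beside 0.874% of all genes, and 0 were called. These 3 were S100a8 and S100a9, which form a calcium-binding complex of neutrophils and monocytes and differed by 0.56 ± 0.14 and 0.42 ± 0.12, and Ly86, a partner of a Toll-like receptor homologue, which differed by 0.42 ± 0.14. At S100a8 and S100a9 every me array was above every WT array, beside 0.802% of all probe sets. The mean of S100a8 was 7.41 and that of Ly86 7.65, within the range of genes of other tissues, and that of S100a9 was 7.24, below it. The part of myeloid cells in the Pirb, Cd300a and Fcgr2b values was not tested.

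Klrb1b had the largest difference of the 10 members between me and WT. It encodes an inhibitory C-type lectin-like receptor of NK cells (NKR-P1B) that binds the lectin encoded by Clec2d. At 1420421_s_at it had values of 8.47, 8.63, 7.98 and 8.26 in WT, with 8.87, 8.74 and 8.19 in he and with 9.54, 9.98 and 8.93 in me. Every me array was above every WT and he array, and he overlapped WT. The me minus WT difference was 1.15 ± 0.27, a 2.21-fold higher level (limma, adjusted p = 1). With array set as a block it was 1.13 ± 0.27 (limma, adjusted p = 0.766). It was 0.68 within set A and 1.85 within set B.

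The he arrays were nearer to WT at this probe set. The he minus WT difference was 0.26 ± 0.27 and the me minus he difference 0.88 ± 0.29 (limma, adjusted p = 1). Leaving out 1 array at a time, the me minus WT difference ran from 0.91 without me 2 to 1.42 without me 3, and the he minus WT difference from 0.13 without he 1 to 0.48 without he 3.

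The other Klrb1b probe sets were also higher in me but spread more or were dim. At 1445399_at the values were 8.28, 8.24, 9.01 and 9.12 in WT, with 8.54, 9.83 and 9.45 in he and with 9.01, 10.42 and 8.76 in me. Here he and me both reached above WT, the groups overlapped, and set B was higher than set A by 1.00, whereas set B was lower by 0.23 to 0.33 at the other 4 probe sets. The me minus WT difference was 0.73 ± 0.46, or 0.91 ± 0.15 with array set as a block (limma, adjusted p = 0.545), and the he minus WT difference was 0.61 ± 0.46, or 0.43 ± 0.15 with the block. The me minus WT difference was 0.62 within set A, which does not hold me 2, and 1.35 within set B, where me 2 is the single me array. Without me 2 it was 0.22, a comparison of me arrays of set A alone with WT arrays of both sets, and with array weights it was 0.00.

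At the 3 dimmer probe sets the me minus WT differences were 0.55 ± 0.19 (1422067_at), 0.36 ± 0.12 (1422066_x_at) and 0.22 ± 0.11 (1422065_at), the last being 0.14 without me 1. Their means were 7.56, 7.21 and 7.08, the first within and the others below the range of genes of other tissues. They therefore add little to the brighter probe sets. At 1422066_x_at the values were 7.19, 7.21, 6.97 and 7.03 in WT, with 7.38, 7.04 and 6.95 in he and with 7.64, 7.37 and 7.36 in me. The me arrays were above WT there, though he 1 was level with the lower me arrays. The probe set that names Klrb1b and Klrb1c together had values of 7.95, 8.10, 9.35 and 9.29 in WT, with 8.29, 9.71 and 9.56 in he and with 8.32, 10.23 and 8.27 in me, which split by array set. The Klrb1 genes are close copies of each other, and probe sets ending in _s_at or _x_at may bind more than 1 of them, so which family member gave these signals is uncertain.

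**Figure D3:**
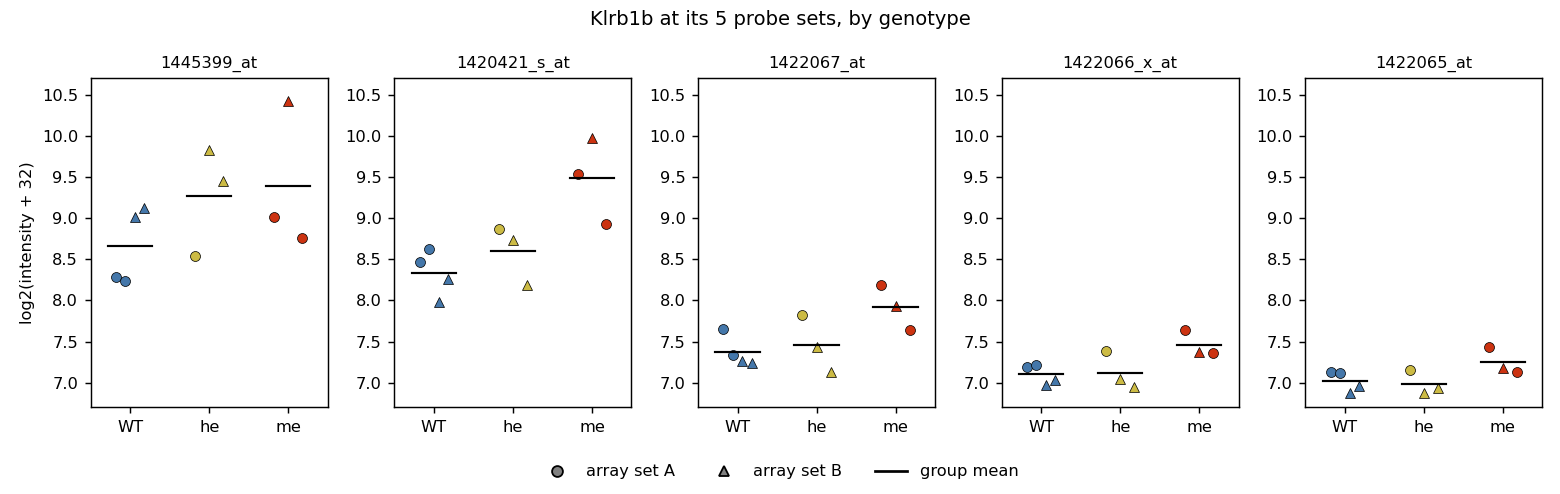
Level of Klrb1b as log2(intensity + 32) at its 5 probe sets in each array, by genotype, with circles for array set A, triangles for set B and lines for group means. The me arrays lie above WT without overlap at 1420421_s_at, 1422066_x_at and 1422065_at, and 1445399_at splits by array set, with me 2 the highest at 10.42.

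Klrb1b lies on chromosome 6, as does Ptpn6, with 70 protein-coding genes between them in the RefSeq gene table. Of these genes 61 were measured, their median me minus WT difference was -0.01, and at 0 were all me arrays above all WT arrays. With limma 3 of the 61 had an unadjusted p under 0.05, which is 4.92% beside 0.874% of all 18193 genes. These were Cops7a, with -0.22 ± 0.06 and all me arrays below all WT arrays, and Cdca3 and Pianp, with 0.64 ± 0.23 and -0.99 ± 0.43 and overlapping groups, and they are named after their values were seen. Of the 10 nearest protein-coding genes on each side of Klrb1b, 16 were measured by 24 probe sets, a choice made after the values were seen. Clec2i, a ligand of an activating Klrb1 receptor, differed by 0.47 ± 0.15 at 1422166_at. That was the 1 probe set of the 24 with me above WT without overlap, beside 0.802% of all probe sets. At 1456426_at Clec2i differed by 0.36 ± 0.23, and the groups overlapped. With limma 2 of the 24 had an unadjusted p under 0.05, beside 0.626% of all probe sets. These were Clec2i 1422166_at and BC035044, which differed by 0.18 ± 0.07. Klrb1f, an activating receptor of the same gene cluster, differed by 0.54 ± 0.32 at 1457722_at and 0.20 ± 0.21 at 1425962_at. Klrb1a differed by 0.17 ± 0.15 and Clec2d by -0.10 ± 0.19. A DNA segment that travelled with the knockout allele would be shared by all me arrays, so its effect and that of SHP-1 loss cannot be told apart.

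Markers of NK and other cytotoxic cells stood beside Klrb1b as follows. The summed intensity of 11 such markers ran from 3334 to 7243 in WT, 3561 to 8912 in he and 3756 to 8824 in me, with 6 of 11 above the range of genes of other tissues. Cd8a, which followed the array sets, made up most of that spread. The sum of the other 10, a choice made after the values were seen, ran from 2705 to 3434 in WT. It ran from 2979 to 3407 in he and from 3535 to 4385 in me. Every me array was thus above every WT and he array in this sum, though not in the sum of all 11. The brightest of the 10 was Gzmb, with a mean of 9.87. It differed by 0.60 ± 0.36, and its me and WT arrays overlapped. Ncr1, which defines NK cells, had a mean of 7.61, within the range of genes of other tissues, and differed by -0.14 ± 0.20. Nkg7 had a mean of 8.87 and differed by 0.18 ± 0.13. Of the 11 markers 7 were higher and 4 lower in me than in WT. At 3 of them every me array was above every WT array, beside 0.802% of all probe sets. With limma 2 had an unadjusted p under 0.05, beside 0.874% of all genes. These were Cst7, a cystatin of cytotoxic cells, with 0.54 ± 0.12, and Eomes, a transcription factor of NK and CD8 cells, with 0.36 ± 0.10. Both were higher in every me array than in every WT array, and Eomes had a mean of 7.58, within the range of genes of other tissues. Neither passed over all probe sets, and the part of these cells in the Klrb1b values was not tested.

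**Figure D4:**
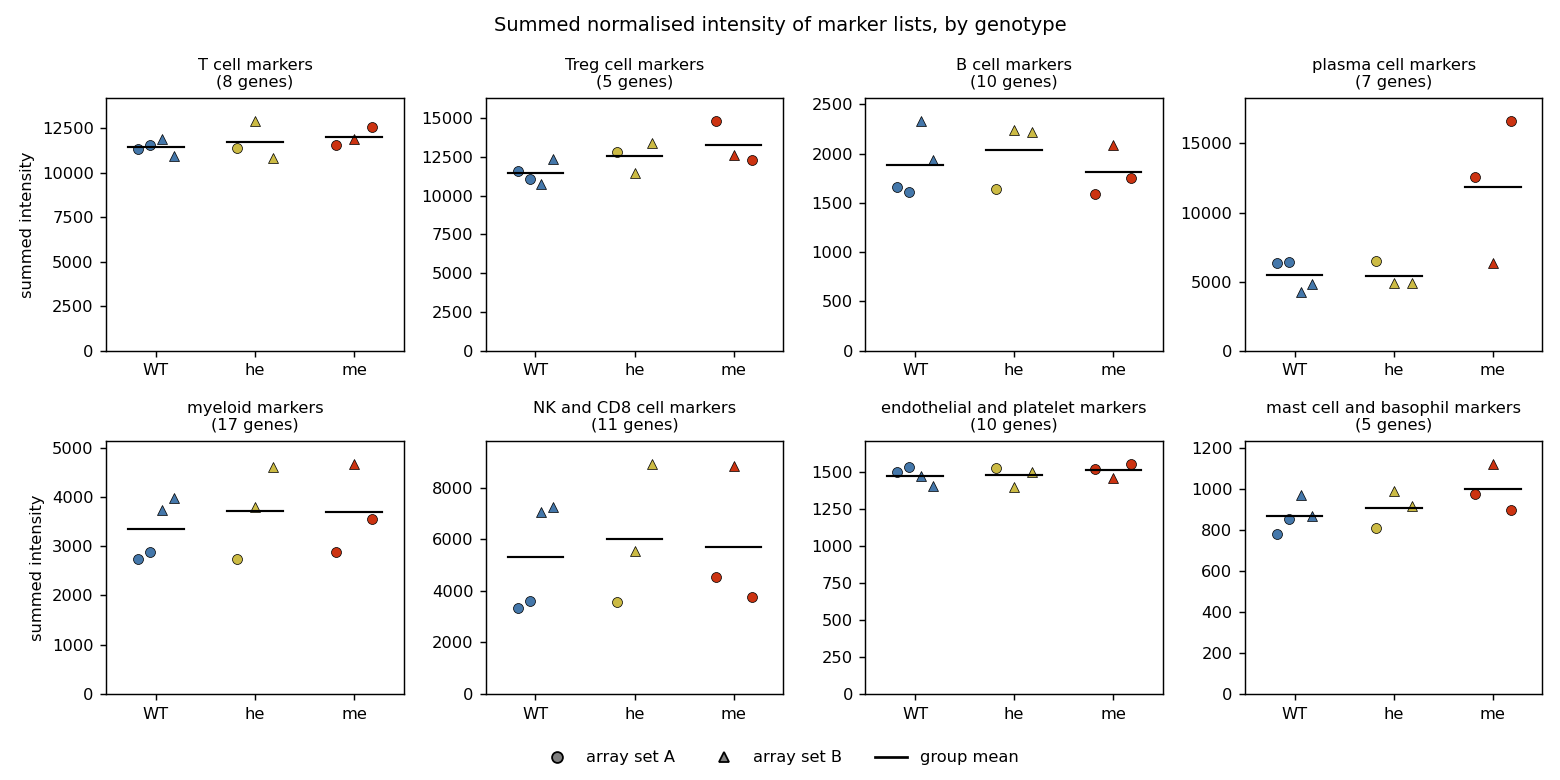
Summed quantile-normalised intensity of 8 marker lists in each array by genotype, with circles for array set A, triangles for set B and lines for group means. The sums of B cell and myeloid markers are higher in set B, that of NK and CD8 cell markers is higher there through Cd8a, and plasma cell markers reach 16633 in me against 6420 at most in WT.

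The promoters of Cd5, Cd22 and Klrb1b are shown as those of the members with the largest me minus WT differences, though the Cd22 groups overlapped. Each is the 250 bases before the gene's start, 5' to 3' on the gene's own strand, from RefSeq (GRCm38.p6), where 9 of the 10 members had an entry. Capitals mark matches on either strand to 4 searched motifs, which do not overlap each other here. AGGAAG, an ETS family core, occurs in 29.5% of 32851 promoter windows of this length. The E box CAGGTG occurs in 17.2%, the RUNX core TGTGGT in 14% and the TATA box TATAAA in 12.4%.
Cd5 (chr19:10738975-10739224, minus strand): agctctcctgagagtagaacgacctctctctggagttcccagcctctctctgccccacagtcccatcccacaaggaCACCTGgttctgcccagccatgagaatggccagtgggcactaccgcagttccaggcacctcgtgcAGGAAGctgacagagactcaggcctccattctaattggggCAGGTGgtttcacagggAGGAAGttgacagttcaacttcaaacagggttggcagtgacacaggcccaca
Cd22 (chr7:30879029-30879278, minus strand): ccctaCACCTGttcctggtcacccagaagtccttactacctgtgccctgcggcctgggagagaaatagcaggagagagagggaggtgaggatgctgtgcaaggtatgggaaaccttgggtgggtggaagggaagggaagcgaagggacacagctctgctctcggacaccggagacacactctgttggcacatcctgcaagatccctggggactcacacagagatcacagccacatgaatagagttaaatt
Klrb1b (chr6:128826316-128826565, minus strand): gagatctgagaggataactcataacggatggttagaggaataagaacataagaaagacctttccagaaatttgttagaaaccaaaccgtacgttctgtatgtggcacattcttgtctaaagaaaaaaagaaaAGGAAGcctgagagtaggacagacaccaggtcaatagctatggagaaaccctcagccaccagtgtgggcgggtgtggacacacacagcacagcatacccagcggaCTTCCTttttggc
The Cd5 window held 2 matches to the ETS core and 2 to the E box, the Cd22 window 1 to the E box and the Klrb1b window 2 to the ETS core. A match is a run of letters and was not tested for binding.

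The 2 classes of receptor had similar medians over all arrays, and their order varied with the array set. With 1 probe set a gene, the me minus WT difference was above 0 for 9 of 10 members with a median of 0.10, beside 50.1% and a median of 0.00 over all genes. The 4 receptors known from T cells had a median of 0.08 and the other 6 a median of 0.11. With array set as a block these medians were 0.13 and 0.20. Within sets the median over the 10 members was 0.07 in A and 0.11 in B. For the receptors known from T cells it was 0.13 in A and 0.02 in B, and for the others 0.07 and 0.20. The order of the classes thus differed between the sets, but set B holds the single me array me 2. The classes hold only 4 and 6 genes, and Pecam1, Lair1, Pirb and Cd300a among them had low signal. Without array me 3 the class medians were 0.04 and 0.19. Without array me 1 the median over the 10 members was 0.23.

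**Figure D5:**
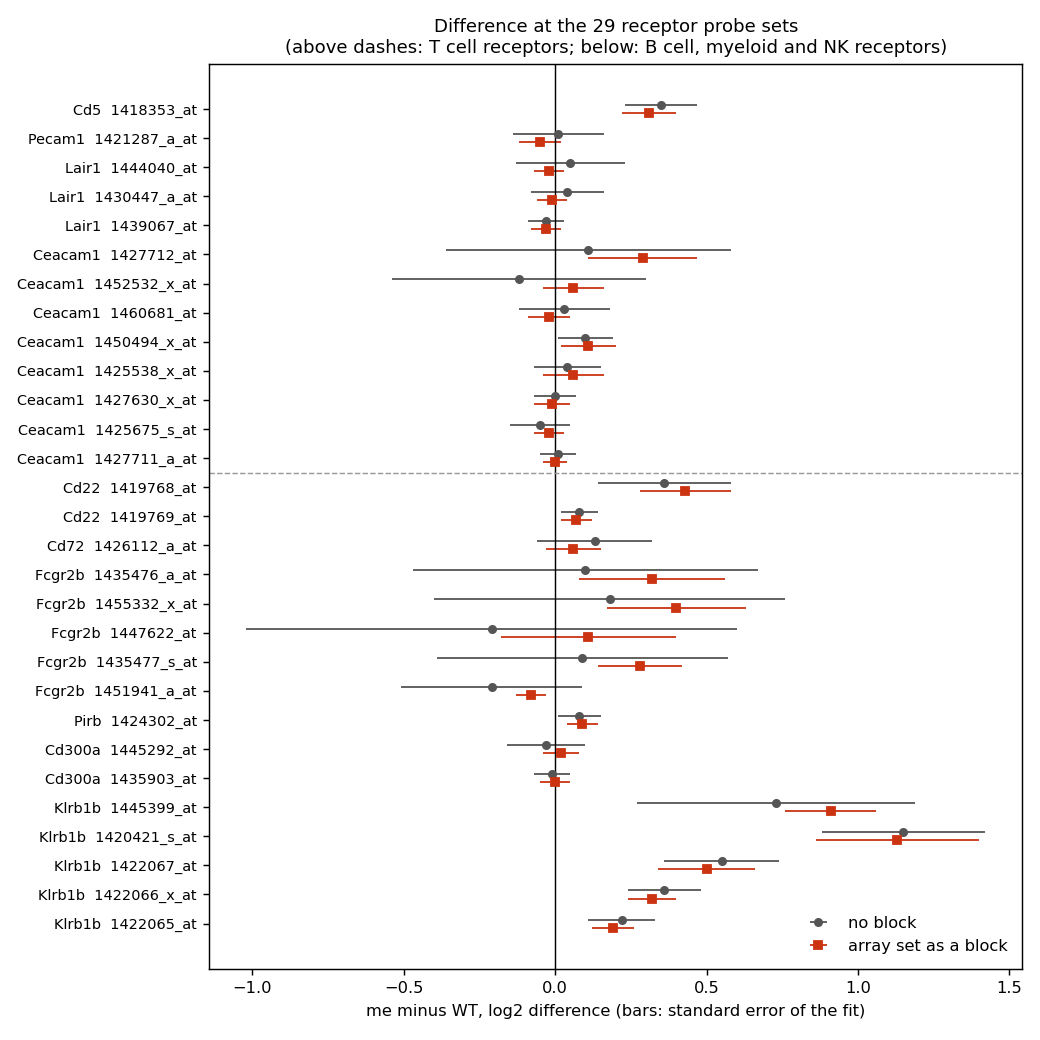
Difference between me and WT on the log2 scale at the 29 receptor probe sets, without a block (grey circles) and with array set as a block (red squares), with bars for the standard error of the limma fit, receptors known from T cells above the dashed line and the others below. Cd5, Cd22 1419768_at and the 5 Klrb1b probe sets lie to the right of 0 in both fits, and the bars of Fcgr2b and of 2 Ceacam1 probe sets shrink with the block.

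For he against WT, a comparison that shares the WT arrays with the one above, 0 of 29 probe sets were called, beside 0% of all probe sets. With limma, 0 of 29 had an unadjusted p under 0.05 (0.298% of all), and 1 with array set as a block (2.13% of all), Klrb1b at 1445399_at. The median over the 10 members was 0.00, with 5 of 10 above 0, beside -0.01 and 46.9% over all genes. At 0 of 29 were all he arrays above all WT arrays, beside 0.469% of all probe sets. For me against he, 0 of 29 were called, beside 0%, and 4 had an unadjusted p under 0.05 (0.668% of all) or 7 with the block (3.21% of all), in the latter case from Cd5, Cd22, Fcgr2b and Klrb1b. The me arrays were above all he arrays at 2 of 29, Cd5 and Klrb1b 1420421_s_at, beside 1.61% of all probe sets, and the median over the members was 0.08, with 7 of 10 above 0, beside 0.01 and 53.5% over all genes.

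Other genes around the same motif were counted in the same way. Of 28 further ITIM receptors 21 were measured, 10 higher and 11 lower in me than in WT, beside 50.1% higher over all genes. Their median was 0.00, and 0 were called. With limma 0 had an unadjusted p under 0.05, beside 0.874% of all genes. With array set as a block 2 did, Siglecg and Klrg1, both higher in me. Over all 18193 genes 382 were higher and 541 lower at that threshold. Among the 21 receptors Btla, an inhibitory receptor of T and B cells, had values of 9.88, 9.86, 9.76 and 9.64 in WT, with 10.10, 9.91 and 9.25 in he and with 10.16, 9.92 and 10.07 in me, a difference of 0.26 ± 0.18. Its me arrays were above WT but not above he. Klrc1, the NK receptor chain NKG2A, differed by 0.21 ± 0.12 and Klrg1, a cadherin-binding receptor of effector T and NK cells, by 0.77 ± 0.57.

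Ligands, kinases and activating partners are set beside 50.1% of all genes that were higher in me than in WT. Of 12 measured ligands of the 10 receptors 6 were higher and 6 lower, with 0 called. H2-D1, a class I molecule and so a ligand of the Pirb protein, differed by 0.43 ± 0.20, Cmah, which modifies the sialic acids that CD22 binds, by 0.27 ± 0.15, and H2-K1 by 0.26 ± 0.22. Of 16 kinases, phosphatases and adaptors that act on the motifs 8 were higher and 8 lower. The 1 with an unadjusted p under 0.05 in limma, beside 0.874% of all genes, was Ptpn6 itself, at -0.72 ± 0.10. Fyn, a Src family kinase of T cells, differed by -0.10 ± 0.10 and Zap70, the kinase of the T cell receptor, by 0.12 ± 0.13. Of 12 activating partners 9 were higher and 3 lower, with a median of 0.04 and 0 called. Among them were Fcer1g, the signalling chain of Fc receptors, at 0.16 ± 0.10 and Fcgr3, an activating Fc receptor, at 0.13 ± 0.10. With array set as a block, 1 ligand was higher at an unadjusted p under 0.05 in limma. So were 2 partners, and of the kinases, phosphatases and adaptors 1 was higher and 2 lower. Over all 18193 genes 382 were higher and 541 lower at that threshold.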

How the data were processed

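The deposited values are the authors' intensity per probe set and array on a linear scale. How they were summarised, background corrected and scaled is not given in the sources used here. Of 45101 probe sets, 64 controls were left out. Values were transformed as log2(intensity + 32) and quantile normalised. All 45037 probe sets were fitted on the 10 arrays with limma 3.58.1 in R 4.3.3 (lmFit and eBayes, genotype as a factor with 3 levels, 7 residual degrees of freedom), and p-values were adjusted by Benjamini-Hochberg with a threshold of 0.05. A gene was represented by its probe set with the highest mean, and all member probe sets are described. By the array annotation 34945 probe sets had 1 gene, 932 had several and 9160 had none. The text names all members, Ptpn6, up to 3 genes of each other list with the smallest p for me against WT, and the defining markers of cell types; others are said to be chosen after their values were seen. Members and lists were chosen with earlier results of these data known. Alternatives were blocks, covariates, filters, pseudocounts of 1 and 128, other scalings, priors and weights, leaving out single arrays, and thresholds of 0.1 or 0.01. The procedure was tested on simulated data. Replicate numbers of the labels were checked: arrays numbered 1, all of set A, deviated together, and those numbered 2 and 3 only within an array set. This cannot decide whether the numbers are pairs, and they were not taken as pairs.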

Additional observations from a re-analysis of the deposited data

How the results depend on the processing

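In every setting but the cre control covariate 0 of 29 member probe sets were called in the 3 comparisons. With that hybridisation control as a covariate 11 were called for me against WT (6846 over all probe sets) and 6 for me against he (3210). Ceacam1 1427712_at and Fcgr2b 1435477_s_at then turned to -0.56 and -0.61. The control ran from 8088 to 21050 and differed with array set as well as genotype, but me 3 of set A, at 9942, lay among the set B arrays. The cause was not tested. Array me 3 also correlated with set B arrays at up to 0.941, the other set A arrays at up to 0.901. With me 3 placed in set B, 0 of all probe sets were called. The median me minus WT difference of the 10 members was 0.24 with a filter on low values, which 6 of the 10 pass, and 0.09 to 0.23 when each array was left out, or 0.07 to 0.23 with array set as a block. The median me minus he difference was 0.20 with array set and sex as blocks and 0.10 to 0.20 with array set as a block when each array was left out. The highest value of each of these 3 ranges was without me 1. Of the 29 probe sets 8 kept 1 sign over all settings for me minus WT, 7 for he minus WT and 10 for me minus he. Other scalings moved the median of all probe sets by at most 0.04.

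Same-numbered arrays deviated together for replicate 1, whose arrays are all of set A, with r of 0.90 to 0.94. For replicates 2 and 3 r ran from -0.87 to 0.69 and from -0.51 to 0.73, positive within an array set and negative between sets. The check follows the array sets and so cannot decide whether the numbers pair the arrays. With the replicate block 0 probe sets were called, and the me minus WT differences were 0.31 for Cd5, 1.12 for Klrb1b 1420421_s_at and 0.49 for Cd22 1419768_at.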

Other observations

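Some other inhibitory receptors, chosen after their values were seen, were also split between the array sets. Of all probe sets 21% were higher and 30.4% lower in set B without overlap, so such a split was common on these arrays. Siglecg, a sialic acid-binding receptor of B cells, had log2 levels of 7.72 to 8.44 in set A and 8.73 to 9.18 in set B. Cd244a, a receptor of NK and cytotoxic T cells, had 7.58 to 7.97 in set A and 8.96 to 9.32 in set B. Klrg1 ran the other way, with 11.07 to 12.09 in set A and 9.61 to 10.60 in set B, and its me minus WT difference within sets was 0.56 and 0.55. The array me 3 was the highest of set A for Siglecg and Cd244a, as it was for Ceacam1 1427712_at and Fcgr2b 1455332_x_at.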
